A study of Homo sapiens with 4 samples.

Results

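Polycomb, trithorax and DNA methylation genes encode the enzymes and scaffold proteins that write, read and erase repressive or activating marks on chromatin. The set described here holds 50 of the 19912 genes in the deposited count table. It was taken from a list of gene symbols chosen with earlier results of these data known. RNA sequencing compared GATA2/eGFP+ endothelial cells of 2 genotypes, WT and GFI1-KO, both differentiated from H1 human embryonic stem cells and both carrying the same GATA2/eGFP reporter. Each genotype has 2 libraries. The repressor GFI1 is known for its part in the endothelial-to-haematopoietic transition, and the comparison addressed how the endothelial transcriptome differs without it. The labels do not say how the knockout was made, how many clones it came from, or whether the replicates were separate differentiations, and each p-value therefore reflects only library-to-library spread, which may be technical.

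Polycomb repressive complex 2 (PRC2) methylates histone H3 at lysine 27, and Polycomb repressive complex 1 (PRC1) ubiquitinates histone H2A and compacts chromatin. Trithorax-type enzymes of the KMT2 family oppose them by methylating histone H3 at lysine 4, while DNA methyltransferases and TET dioxygenases add and oxidise the methyl mark on cytosine. In developing endothelium and blood these systems are known for holding lineage genes silent or poised, and GFI1 itself is known to act through histone demethylase and deacetylase corepressors.

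GFI1-KO replicate 1 was shallow, at 146584 counts, while the other 3 libraries had 2239214 to 2417410. Levels are given as CPM, the count scaled to the library total after TMM adjustment. In the shallow library 3 counts, taken as the floor, equal 19.9 CPM, against 1.26 to 1.34 elsewhere. As the check of the labels, GFI1 was at 58.5 and 58.3 CPM in WT against 19.9 and 19.6 CPM in GFI1-KO (log2 fold change -1.57, SE 0.31, adjusted p = 0.0215 by edgeR). The GFI1-KO values rest on 3 reads, the floor of the shallow library, and on 44 reads in replicate 2. All 12 endothelial markers were detected, with summed levels of 6470 and 6660 CPM in WT and 7880 and 9300 CPM in GFI1-KO. The sialomucin gene EMCN was the called gene among them, at 11.6 and 6.71 CPM in WT against 72.9 and 41.4 CPM in GFI1-KO (log2 fold change 2.38, adjusted p = 0.00959). Of the endothelial sums, KDR alone gave 2990 and 3290 CPM in WT and 3700 and 4970 CPM in GFI1-KO. Of the 12 endothelial markers, 11 had a log2 fold change above 0. PECAM1 did not, at 443 and 388 CPM in WT against 344 and 324 CPM in GFI1-KO. Among 10 markers of pluripotent stem cells, NANOG and PRDM14 had 0 counts in all 4 libraries, POU5F1 had 4, 13, 0 and 5 counts, and the summed level was 813 and 838 CPM in WT and 709 and 641 CPM in GFI1-KO. Most of that sum was LIN28A, at 603 and 635 CPM in WT and 523 and 462 CPM in GFI1-KO. DPPA4 and SALL4 were also present, at 79.5 to 119 CPM and 51.6 to 99.4 CPM across the 4 libraries. ZFP42, with the smallest p of this list, was at 23.2 and 22.7 CPM in WT against 0 and 9.35 CPM in GFI1-KO (log2 fold change -1.44, edgeR adjusted p = 0.208). Of the 5 pluripotency markers tested, 2 had a log2 fold change above 0. The 12 blood markers summed to 72.8 and 106 CPM in WT and 39.7 and 42.7 CPM in GFI1-KO, with PTPRC, HBE1 and HBZ at 0 in all libraries. ITGA2B was at 7.59 and 19.3 CPM in WT against 0 and 1.78 CPM in GFI1-KO. GP1BA was at 23.2 and 18.5 CPM against 13.2 and 6.23 CPM. CD53 and CORO1A were instead above WT in GFI1-KO replicate 2, at 3.12 and 6.23 CPM. In the shallow library the blood sum is 4 reads of LCP1 and 2 of GP1BA. Mesenchymal markers, 11 in number, summed to 2980 and 2150 CPM in WT and 2250 and 2400 CPM in GFI1-KO. Most of each sum was the collagen genes COL1A1, COL1A2 and COL3A1. PRRX1, with the smallest p of the list, was higher in both GFI1-KO libraries. It was at 6.7 and 10.1 CPM in WT against 19.9 (3 reads) and 24.5 CPM (log2 fold change 1.49, edgeR adjusted p = 0.131). Of the 9 mesenchymal markers tested, 2 had a log2 fold change above 0 and none was called. In such sorted populations, fewer cells of a type and less RNA per cell cannot be told apart, and the part of these marker levels in the values given here was not tested.

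No gene of the set passed the test between GFI1-KO and WT. Of the 50 genes, 48 were tested, 0 were called higher, 0 were called lower and the smallest edgeR adjusted p was 0.281, for PHC2. Across all 11380 genes tested, 109 were called, which is 0.958%. With unadjusted p under 0.05 there were 2 genes of the set, PHC2 and KMT2D, beside 9.35% of all genes tested, and DESeq2 and the newer edgeR dispersion gave 0 calls with 2 and 3 such genes. The median log2 fold change was -0.022 over the 48 genes and -0.024 over all genes tested, with 22 values above 0 and 26 below. Both GFI1-KO libraries lay above both WT libraries for 9 of the 48 genes, against 18.6% of all genes, and below both for 9, against 22.7%. Read against the background, neither count sets the genes apart. In the fits that left out 1 library, 0 genes of the set were called except without GFI1-KO replicate 2, which leaves the shallow library as the lone GFI1-KO sample and gave 3: KMT2D, PHC3 and UHRF1.

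The absence of a call limits the size of the differences unevenly. Fold changes of the 48 genes ran from -0.68 for PCGF6 to 0.64 for PHC2 on the log2 scale. For 34 of the 48 the 95% interval of the fold change lay wholly within a 2-fold change in either direction, which held for 52.0% of all genes tested. The genes of the set were also more abundant, with a median of 85.5 CPM against 38.5 over all genes tested, and the part of abundance in these widths was not tested. The other 14 intervals reached 2-fold or beyond. They belonged to BMI1, PCGF1, PCGF5, PCGF6, CBX2, CBX6, PHC2, PHC3, KMT2C, KMT2D, KDM5A, UHRF1, TET2 and MBD2. Apart from PHC2 and KMT2D, whose intervals left out 0 before adjustment for the number of genes tested, these intervals held both 0 and a 2-fold change.

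**Figure D1:**
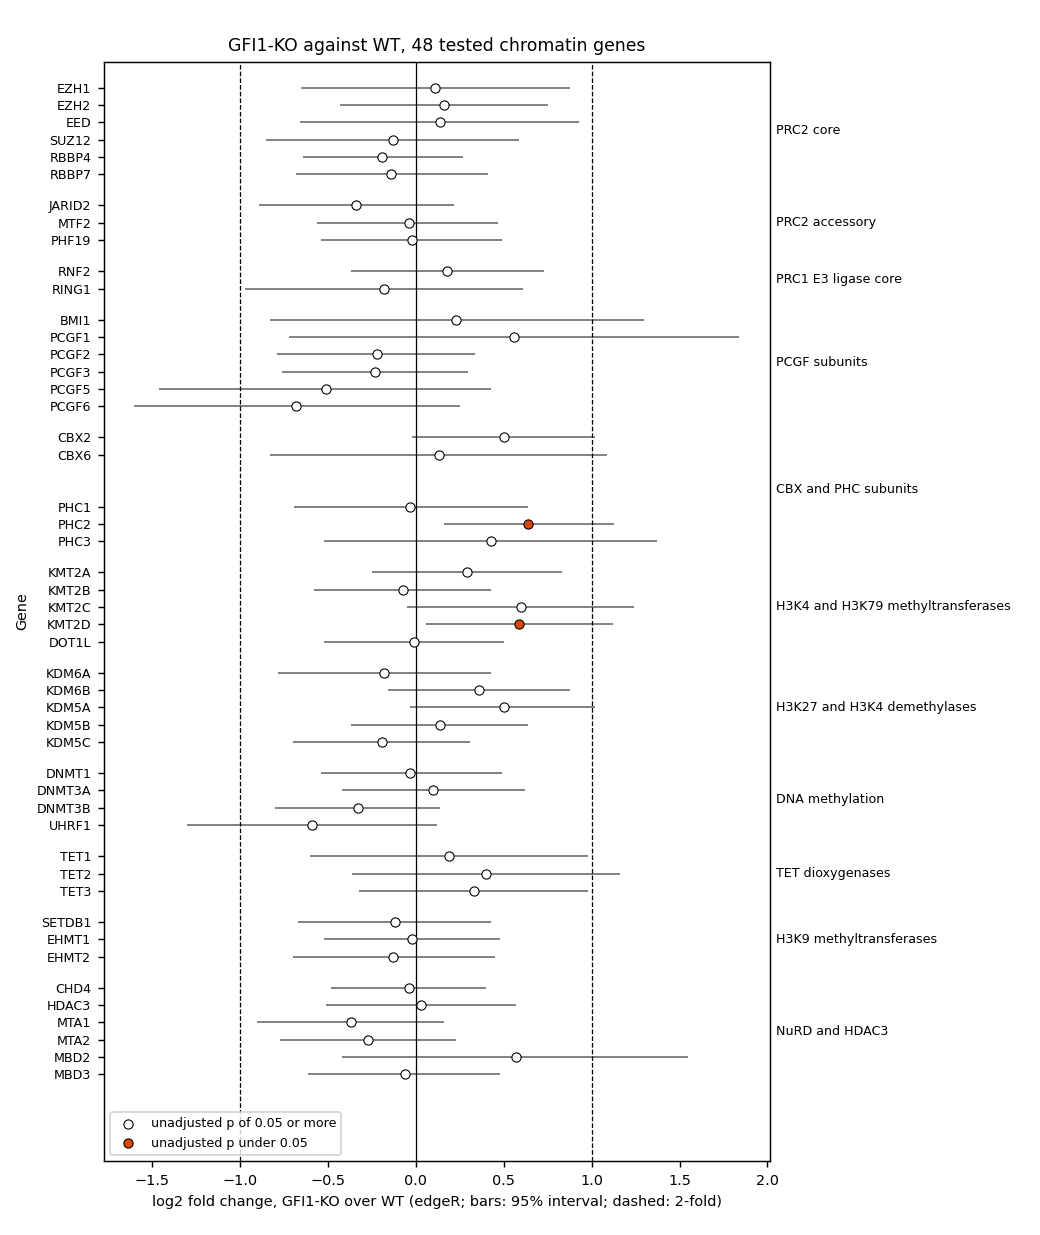
Log2 fold change of GFI1-KO over WT (x axis) for the 48 tested genes (y axis, grouped by role). Bars are 95% intervals derived from the edgeR test statistic, and dashed lines mark 2-fold. Filled points mark PHC2 and KMT2D, the genes with unadjusted p under 0.05; no gene passed after adjustment.

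Levels spanned a wide range among the genes. On a scale of CPM per kilobase of the principal transcript, WT means ran from 82.3 for DNMT3B, a de novo DNA methyltransferase, and 75.9 for CHD4, the remodelling ATPase of the NuRD complex, down to 0.848 for CBX8 and 0.647 for CBX7, chromodomain subunits of canonical PRC1. In GFI1-KO the same genes stood at 63.3, 74.5, 0.294 and 0.975 CPM per kilobase. The NuRD subunits MTA2 and MTA1 and the histone-binding protein RBBP7 followed CHD4 in WT, at 64.1, 60.0 and 58.9. CBX7 and CBX8 were the 2 genes that the low-count filter removed. The WT counts of CBX7 were 9 and 3, against 1 and 3 in GFI1-KO. Those of CBX8 were 5 and 10, against 0 and 5. Their pooled GFI1-KO to WT ratios were both 0.643, with exact 95% counting intervals of 0.151 to 2.12 and 0.183 to 1.86.

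**Figure D2:**
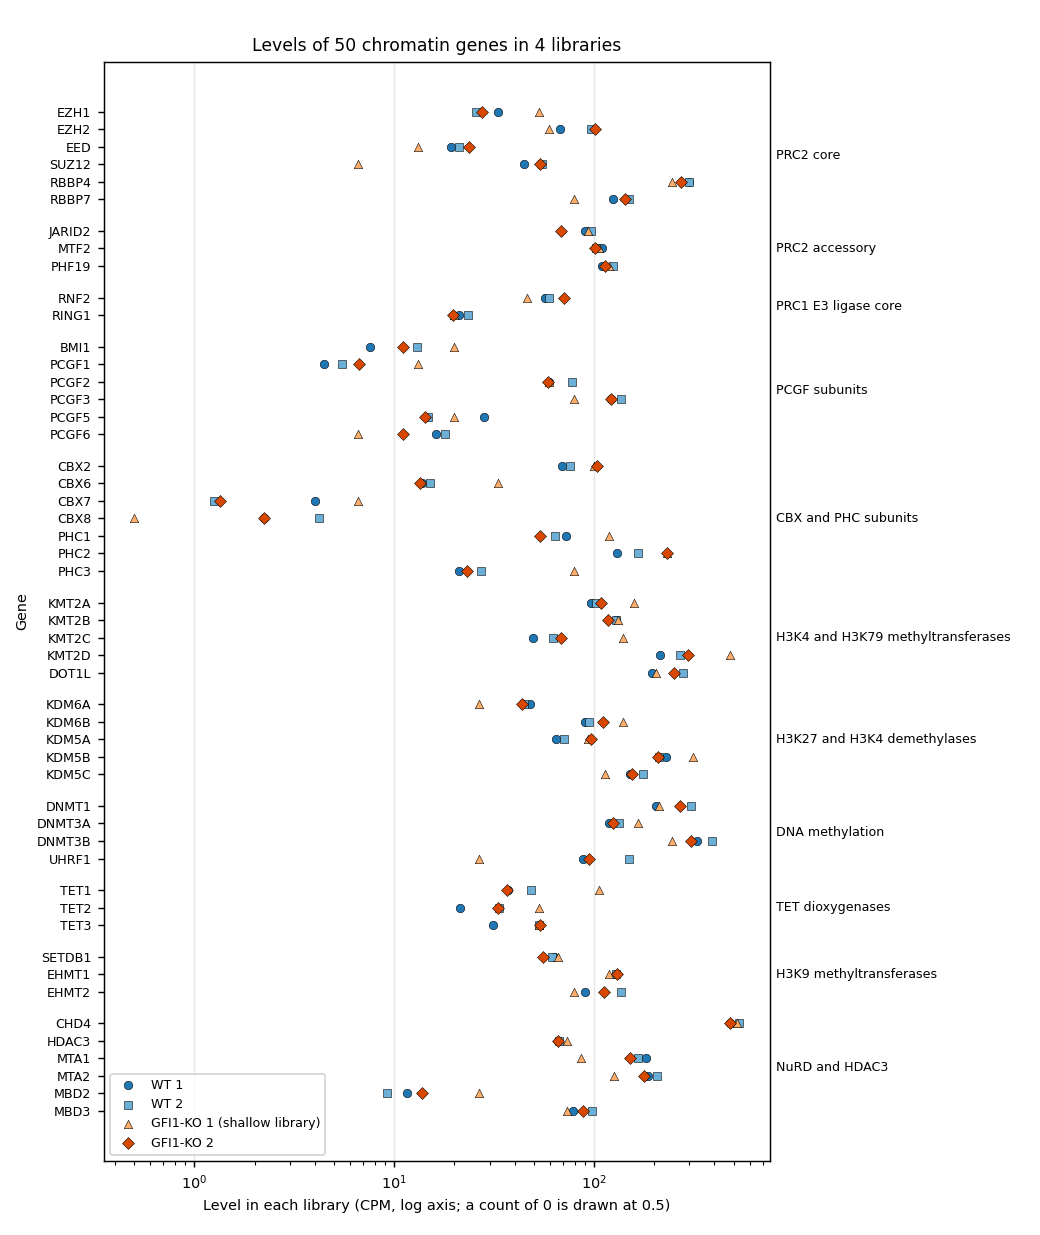
Level of each of the 50 genes (y axis, grouped by role) in each of the 4 libraries, in CPM on a log axis; a count of 0 is drawn at 0.5. DNMT3B and CHD4 lie at the high end and CBX7 and CBX8 at the low end in every library, and the triangles of the shallow GFI1-KO replicate 1 lie apart from the other symbols for SUZ12, UHRF1, TET1 and PHC3.

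None of the 6 PRC2 core genes passed the test, and their 95% intervals all lay within 2-fold. RBBP4, a histone chaperone shared by PRC2 and NuRD, was at 297 and 300 CPM in WT and 245 and 272 CPM in GFI1-KO (log2 fold change -0.19, 95% interval -0.64 to 0.27). Both GFI1-KO values were below both WT values, and the interval held 0. EZH2, the main H3K27 methyltransferase of dividing cells, was at 67.4 and 96.5 CPM in WT and 59.6 and 101 CPM in GFI1-KO (0.16, -0.43 to 0.75). Its 2 WT libraries differed by 1.43 times (exact 95% counting interval 1.16 to 1.77), and the groups overlapped. EZH1, its paralog with weaker catalytic activity, had a log2 fold change of 0.11 (-0.65 to 0.88) and EED, which binds the methylated histone tail, of 0.14 (-0.66 to 0.93). RBBP7, the close relative of RBBP4, had -0.14 (-0.68 to 0.41). SUZ12, the scaffold of the complex, was counted 100 and 131 times in WT, once in the shallow library and 120 times in GFI1-KO replicate 2 (log2 fold change -0.13, -0.85 to 0.59). The single read in the shallow library corresponds to 6.62 CPM with an exact interval of 0.168 to 36.9, below the 44.3 to 63.9 CPM of GFI1-KO replicate 2. Pooled over libraries, the GFI1-KO to WT ratio of SUZ12 was 1.01 (0.804 to 1.26). Without GFI1-KO replicate 2 its log2 fold change was -2.89 (adjusted p = 0.0816).

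The accessory subunits that steer PRC2 to its sites did not pass the test either, with intervals within 2-fold for all 3. PHF19, a Tudor-domain protein that reads H3K36 methylation, was at 110 and 125 CPM in WT and 119 and 114 CPM in GFI1-KO (log2 fold change -0.02, 95% interval -0.54 to 0.49). MTF2, its paralog, was at 109 and 102 CPM against 106 and 101 CPM (-0.04, -0.56 to 0.47), and the groups of both genes overlapped. JARID2, a catalytically inactive Jumonji protein that binds nucleosomes with PRC2, was at 89.8 and 96.5 CPM in WT, 92.7 CPM in the shallow library and 68.5 CPM in the other GFI1-KO library (-0.34, -0.89 to 0.22).

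In PRC1, the E3 ligase genes were likewise not called. RNF2, which encodes the main H2A ubiquitin ligase RING1B, was at 56.7 and 59.6 CPM in WT and 46.4 and 70.8 CPM in GFI1-KO (log2 fold change 0.18, 95% interval -0.37 to 0.73). RING1, its paralog, had -0.18 (-0.97 to 0.61). The PCGF subunits distinguish the canonical and variant PRC1 complexes, and their fold changes ran from -0.68 to 0.56 with 2 of 6 above 0. PCGF3 was at 122 and 137 CPM in WT and 79.5 and 122 CPM in GFI1-KO (-0.23, -0.76 to 0.30), with the GFI1-KO replicate 2 value just under the lower WT value. PCGF6, a subunit of the variant complex that silences germline genes, was counted 36 and 43 times in WT, against 1 and 25 times in GFI1-KO (-0.68, -1.6 to 0.25, edgeR adjusted p = 0.748). PCGF1, a subunit of the variant complex that contains BCOR, was counted 10 and 13 times against 2 and 15 (0.56, -0.72 to 1.84). The groups did not overlap for PCGF6 or PCGF1, and their values in the shallow library rest on 1 and 2 reads. BMI1, which shares 23.3% of its exon bases with the readthrough gene COMMD3-BMI1, was at 7.59 and 13.0 CPM in WT and 19.9 and 11.1 CPM in GFI1-KO (0.23, -0.83 to 1.3). PCGF2, its paralog, had -0.22 (-0.79 to 0.34), with 32.7% of its exon bases overlapped by CISD3 on the opposite strand, and PCGF5, the paralog of PCGF3, had -0.51 (-1.46 to 0.43).

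PHC2, a Polyhomeotic subunit whose SAM domain polymerises canonical PRC1, had the highest fold change of the set and the smallest p. It lies on chromosome 1 from 33323623 to 33431052 on the minus strand of GRCh38. It was at 130 and 166 CPM in WT (mean 148 ± 25.3, SD, n = 2) and 232 and 231 CPM in GFI1-KO (mean 232 ± 0.278, SD, n = 2), so both GFI1-KO libraries lay above both WT libraries. The 232 CPM of the shallow library rests on 35 reads. Its exact counting interval, 161 to 322 CPM, overlaps the 150 to 183 CPM of WT replicate 2, and the SD of 0.278 understates the uncertainty. The log2 fold change was 0.64 (SE 0.23, 95% interval 0.16 to 1.13, unadjusted p = 0.0125, edgeR adjusted p = 0.281). The value was as large without the shallow GFI1-KO replicate 1 (0.64, adjusted p = 0.151) and was 0.49 without WT replicate 1. The 2 WT libraries themselves differed by 1.27 times (exact counting interval 1.09 to 1.49). CBX2, the most abundant chromodomain subunit measured here, was at 69.2 and 75.5 CPM in WT and 99.4 (15 reads) and 103 CPM in GFI1-KO. Its log2 fold change was 0.50 (-0.02 to 1.02, adjusted p = 0.575), also without overlap of the groups. Its value was 0.51 without GFI1-KO replicate 1 and 0.47 without GFI1-KO replicate 2. CBX6, a less abundant paralog, had 0.13 (-0.83 to 1.09). PHC1 and PHC3, the other Polyhomeotic genes, had log2 fold changes of -0.03 and 0.43, and both were high in the shallow library alone, at 119 and 79.5 CPM, against 53.4 and 23.1 CPM in GFI1-KO replicate 2.

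The promoters of PHC2 and KMT2D are printed because these are the 2 genes of the set with an unadjusted p under 0.05. The sequences are the 250 bases before the start site in RefSeq on GRCh38.p14, gene strand, 5′ to 3′. Capitals mark AATC, the core of the motif that GFI1 is known to bind, or GATT, the same core on the other strand.
PHC2 (chr1:33431096-33431345, minus strand): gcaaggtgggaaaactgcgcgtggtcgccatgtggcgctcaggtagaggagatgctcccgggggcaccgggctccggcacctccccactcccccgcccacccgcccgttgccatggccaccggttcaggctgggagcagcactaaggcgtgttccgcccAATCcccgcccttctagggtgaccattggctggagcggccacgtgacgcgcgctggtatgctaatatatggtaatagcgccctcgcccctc
KMT2D (chr12:49060795-49061044, minus strand): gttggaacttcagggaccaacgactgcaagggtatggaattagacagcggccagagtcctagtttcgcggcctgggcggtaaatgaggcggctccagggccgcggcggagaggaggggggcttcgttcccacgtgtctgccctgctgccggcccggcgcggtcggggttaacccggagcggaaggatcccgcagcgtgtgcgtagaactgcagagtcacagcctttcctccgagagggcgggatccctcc

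PHC2 holds the core 1 time, and KMT2D has no match in this window. Of the 9 genes with both GFI1-KO libraries above both WT libraries, 8 had a promoter in the table and 6 of these held the core; KMT2C and KMT2D did not. Over the set, 25 of the 47 promoters found (53.2%) hold AATC on either strand in these 250 bases, against 57.8% of 9299 promoters of tested genes, so the letters are common in this window. The promoters of the set held a median of 25 CpG dinucleotides, at an observed-to-expected ratio of 0.871, against 21 and 0.83 over tested genes. DNMT3B and PCGF2 were the low end of the set, with 3 and 1 CpG in the window of the 1 start used per gene. No promoter of CBX2, CBX8 or DOT1L was used.

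None of the 5 genes for methyltransferases of H3K4 and H3K79 passed the test. KMT2D, which with KMT2C monomethylates H3K4 at enhancers, was at 214 and 269 CPM in WT and 477 and 295 CPM in GFI1-KO (log2 fold change 0.59, SE 0.25, 95% interval 0.06 to 1.12, unadjusted p = 0.0314, edgeR adjusted p = 0.441). All GFI1-KO values exceeded the WT values, with the 295 CPM of GFI1-KO replicate 2 next to the 269 CPM of WT replicate 2 and the shallow library standing apart. KMT2C was at 49.6 and 62.1 CPM in WT and 139 and 68.5 CPM in GFI1-KO (0.60, -0.05 to 1.24). Without GFI1-KO replicate 1 both log2 fold changes were 0.29 (adjusted p = 0.817 and 0.866), and without GFI1-KO replicate 2 they were 0.99 and 1.32 (adjusted p = 0.0173 and 0.0511). KMT2A, the MLL gene of haematopoiesis and of leukaemia translocations, had 0.29 (-0.25 to 0.83), and 17.9% of its exon bases lie in the overlapping gene AP001267.5. KMT2B and the H3K79 methyltransferase DOT1L had -0.07 (-0.58 to 0.43) and -0.01 (-0.52 to 0.50).

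None of the 5 histone demethylase genes passed the test. KDM5A, which removes H3K4 methylation, was at 64.3 and 70.9 CPM in WT and 92.7 (14 reads) and 96.6 CPM in GFI1-KO. Its log2 fold change was 0.50 (95% interval -0.03 to 1.02, edgeR adjusted p = 0.576) and was 0.51 without the shallow library. KDM5B, its paralog with the highest CPM of the family, was at 230 and 212 CPM in WT and 311 and 208 CPM in GFI1-KO (0.14, -0.37 to 0.64). KDM5C had -0.19 (-0.70 to 0.31). Per kilobase of transcript, the WT mean was higher for KDM5C (26.8 against 21.4 CPM). The GFI1-KO mean was higher for KDM5B (25.1 against 21.9 CPM). The H3K27 demethylases KDM6B and KDM6A had 0.36 (-0.16 to 0.88) and -0.18 (-0.78 to 0.43), with non-overlapping groups in opposite directions and neither past the threshold. KDM6B was at 90.2 and 94.8 CPM in WT and 139 and 111 CPM in GFI1-KO. KDM6A was at 47.8 and 44.5 CPM against 26.5 (4 reads) and 43.6 CPM. The counting intervals of KDM6A in WT replicate 2 and GFI1-KO replicate 2 overlap, at 36.4 to 53.8 and 35.4 to 53.2 CPM.

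None of the 4 genes that write or maintain DNA methylation passed the test. DNMT3B was at 327 and 387 CPM in WT and 245 and 304 CPM in GFI1-KO (log2 fold change -0.33, 95% interval -0.80 to 0.14, edgeR adjusted p = 0.768). Both GFI1-KO values were below both WT values. DNMT3A, its paralog, was at 119 and 133 CPM against 166 and 124 CPM (0.10, -0.42 to 0.62). The maintenance methyltransferase gene DNMT1 was at 205 and 306 CPM in WT and 212 and 270 CPM in GFI1-KO (-0.03, -0.54 to 0.49). UHRF1, which brings DNMT1 to hemimethylated DNA after replication, was at 87.5 and 150 CPM in WT and 26.5 and 93.9 CPM in GFI1-KO (-0.59, -1.3 to 0.12, adjusted p = 0.675). Its value in the shallow library rests on 4 reads, and GFI1-KO replicate 2 lay between the WT libraries. UHRF1 had -0.34 (adjusted p = 0.807) without the shallow library and -2.15 (adjusted p = 0.0177) without GFI1-KO replicate 2. Summed levels of 24 S phase genes stood in the same order, at 2080 and 2820 CPM in WT and 1580 and 2410 CPM in GFI1-KO, and their part in the UHRF1 values was not tested. Neither the S phase genes nor 22 G2/M genes held a called gene, with medians of -0.13 and 0.042.

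The order of the 4 libraries in the S phase sum was shared by 6 genes of the set: SUZ12, RBBP7, KDM5C, UHRF1, EHMT2 and MBD3. The share of all genes tested with this order was not counted, so the 6 cannot be read as an excess. The lowest place in the order is that of the shallow GFI1-KO replicate 1, where these genes had from 1 read (SUZ12) to 17 reads (KDM5C). The promoters of UHRF1 and EHMT2 are printed as those of the 6 genes with the largest ratios between the WT libraries. Capitals mark a match to the E2F motif, searched on both strands as TTTCCCGC, TTTCGCGC, TTTGCCGC or TTTGGCGC in the same 250-base RefSeq window on GRCh38.p14.
UHRF1 (chr19:4909251-4909500, plus strand): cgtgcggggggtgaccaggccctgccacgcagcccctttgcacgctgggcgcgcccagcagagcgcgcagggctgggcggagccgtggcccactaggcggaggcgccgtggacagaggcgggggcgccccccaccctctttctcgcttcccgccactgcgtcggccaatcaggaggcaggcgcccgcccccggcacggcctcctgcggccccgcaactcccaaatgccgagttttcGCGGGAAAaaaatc
EHMT2 (chr6:31897699-31897948, minus strand): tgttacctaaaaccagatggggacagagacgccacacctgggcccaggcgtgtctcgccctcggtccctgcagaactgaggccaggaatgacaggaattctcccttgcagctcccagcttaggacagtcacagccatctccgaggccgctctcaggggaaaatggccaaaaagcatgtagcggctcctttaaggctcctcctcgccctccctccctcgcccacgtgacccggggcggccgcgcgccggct

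UHRF1 holds 1 match, as GCGGGAAA, and EHMT2 none. Of the 6 genes that shared the order, SUZ12 and UHRF1 hold a match and the other 4 do not. Such a match was found in 3 of 47 promoters of the set (6.38%), those of EZH1, SUZ12 and UHRF1, and in 4.53% of the promoters of tested genes.

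The TET dioxygenases, which oxidise 5-methylcytosine, had fold changes between 0.19 and 0.40 with overlapping groups. TET1 was at 37.1 and 48.3 CPM in WT and 106 and 36.5 CPM in GFI1-KO (log2 fold change 0.19, 95% interval -0.60 to 0.98), and its sign turned to -0.23 without the shallow library. TET2, a gene often mutated in clonal haematopoiesis, and TET3 had 0.40 (-0.36 to 1.16) and 0.33 (-0.32 to 0.98). The 3 H3K9 methyltransferase genes had log2 fold changes from -0.13 to -0.02. EHMT1 was at 128 and 129 CPM in WT and 119 and 130 CPM in GFI1-KO (-0.02, -0.52 to 0.48), while EHMT2 and SETDB1 had -0.13 (-0.70 to 0.45) and -0.12 (-0.67 to 0.43).

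In the NuRD complex, CHD4 was at 480 and 533 CPM in WT and 517 and 478 CPM in GFI1-KO (log2 fold change -0.04, 95% interval -0.48 to 0.40). Its groups overlapped, and 46.9% of its exon bases lie in the overlapping gene AC006064.6 on the same strand, where the assignment of reads is uncertain. MTA1 and MTA2, scaffold subunits, were lower in both GFI1-KO libraries than in both WT libraries, with -0.37 (-0.90 to 0.16) and -0.27 (-0.77 to 0.23). MTA1 was at 181 and 165 CPM in WT and 86.1 (13 reads) and 152 CPM in GFI1-KO. MTA2 was at 185 and 206 CPM against 126 (19 reads) and 178 CPM. Without the shallow library their log2 fold changes were -0.19 and -0.14. Counting intervals of GFI1-KO replicate 2 overlap those of the nearer WT library. For MTA1 they are 136 to 169 and 149 to 182 CPM, and for MTA2 161 to 196 and 168 to 204 CPM. The methyl-CpG-binding subunit MBD2 had 0.57 (-0.42 to 1.55) and its paralog MBD3 -0.06 (-0.61 to 0.48). HDAC3, the deacetylase of the NCoR corepressor, was at 65.6 to 72.9 CPM in all 4 libraries (0.03, -0.51 to 0.57).

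The balance between paralogs does not depend on library scaling and was compared as the share of the first gene in the reads of 17 pairs. In 15 of them the pooled share differed by at most 10 percentage points between genotypes. Nearly all pooled GFI1-KO reads are from replicate 2, and without it 7 pairs differed by more than 10 points: the PCGF1 pair (44.1), EZH1 with EZH2 (20.9), KDM6B with KDM6A (17.2), MBD3 with MBD2 (-16.1), DNMT3B with DNMT3A (-14.2), PCGF2 with BMI1 (-11.9) and KMT2A with KMT2B (10.8). Leaving out each other library in turn gave 1 to 3 such pairs. Shares that do not depend on scaling can still differ with transcript length. Of the 7 pairs, the PCGF1 pair moved toward the shorter transcript (1792 against 2230 bases). The others moved toward the longer: EZH1 (4623 against 2639), KDM6B (6713 against 5438), MBD2 (5188 against 2439), DNMT3A (9501 against 4336), BMI1 (3428 against 3062) and KMT2A (16628 against 8469). The part of length in these shares was not tested. M6PR overlaps 18.1% of the exon bases of PHC1 on the opposite strand, where the assignment of reads is uncertain. PHC1 took 35.7% and 27.7% of the PHC1 and PHC2 reads in WT, against 34.0% and 18.8% in the GFI1-KO libraries. The pooled shares were 31.3% in WT (exact binomial 95% interval 28.5 to 34.3) and 19.9% in GFI1-KO (17.0 to 23.1), a difference of -11.4 points that became 2.62 points without GFI1-KO replicate 2. PCGF1 took 21.7% and 23.2% of the PCGF1 and PCGF6 reads in WT, against 66.7% and 37.5% in the GFI1-KO libraries, where the first value rests on 3 reads. Its pooled shares were 22.5% (14.9 to 31.9) and 39.5% (25.0 to 55.6). EZH1 took 32.9% and 21.0% of the EZH1 and EZH2 reads in WT, against 47.1% and 21.4% in the GFI1-KO libraries, and DNMT3B took 73.3% and 74.4% of the reads of the de novo pair in WT, against 59.7% and 71.0% in the GFI1-KO libraries. The share of KMT2C in KMT2C and KMT2D was 18.8%, 18.8% and 18.9% in the 3 deep libraries and 22.6% in the shallow one. With 2 libraries per genotype an exact two-sided permutation test cannot give a p under 1 in 3, so none was made, and the intervals cover counting error only.

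**Figure D3:**
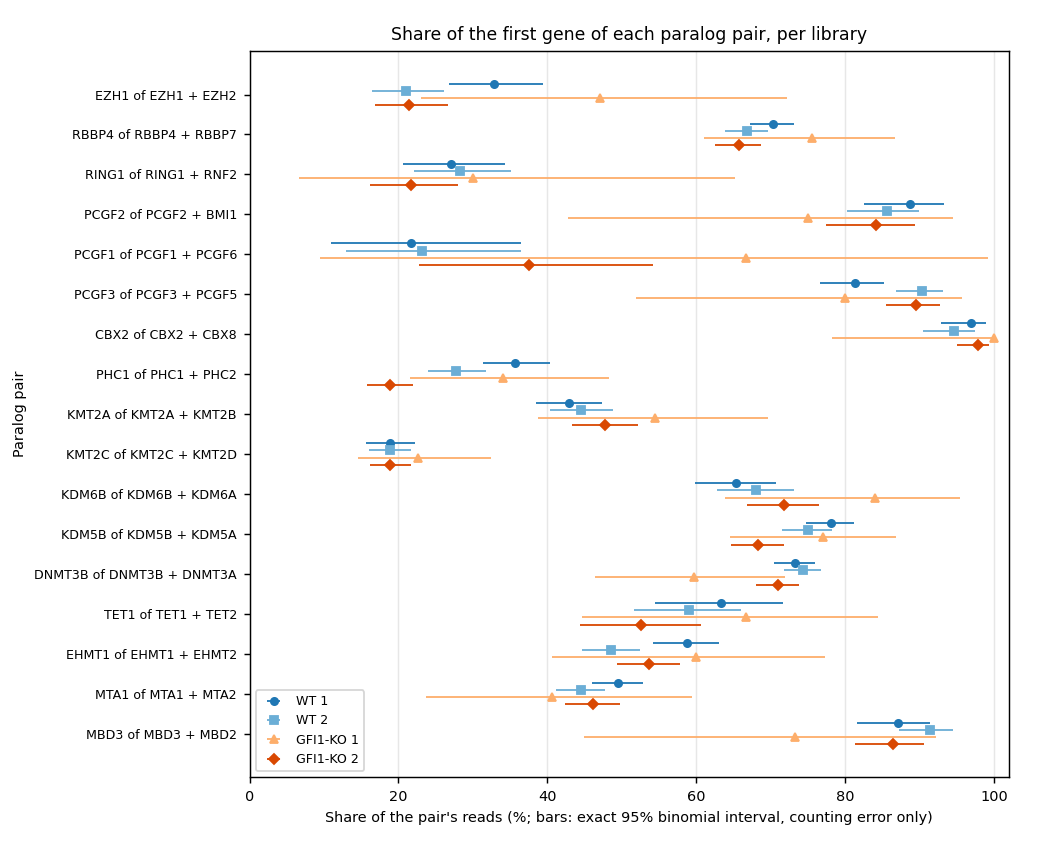
Share of the first gene in the reads of each of 17 paralog pairs (x axis, percent), per library, with exact 95% binomial intervals. The PHC1 share of GFI1-KO replicate 2 (18.8%) lies below the other 3 libraries, and the wide bars belong to the shallow GFI1-KO replicate 1.

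Libraries of 1 genotype also differed from each other. Between the 2 GFI1-KO libraries the exact 95% counting interval of the ratio left out 1 for 10 of the 48 genes (20.8%), against 10.5% of all genes tested, whose median level is lower. PHC1, PHC3, KMT2C, KMT2D, KDM5B and TET1 were higher in the shallow library, by 1.49 times for KDM5B to 3.43 times for PHC3. SUZ12, RBBP7, UHRF1 and MTA1 were lower, at ratios of 0.124, 0.56, 0.282 and 0.567. Of the 6 higher genes, 5 encode transcripts in the top 10% of tested genes by length, over 7714 bases; PHC1 does not. Over all 1138 tested genes of that length class, summed levels in GFI1-KO replicate 1 were 1.14 times those of GFI1-KO replicate 2, and over the other 10242 genes 0.906 times. For the 12 genes of the set in that class the ratio was 1.40, and for the other 36 it was 0.886. The part of transcript length in these values was not tested.

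**Figure D4:**
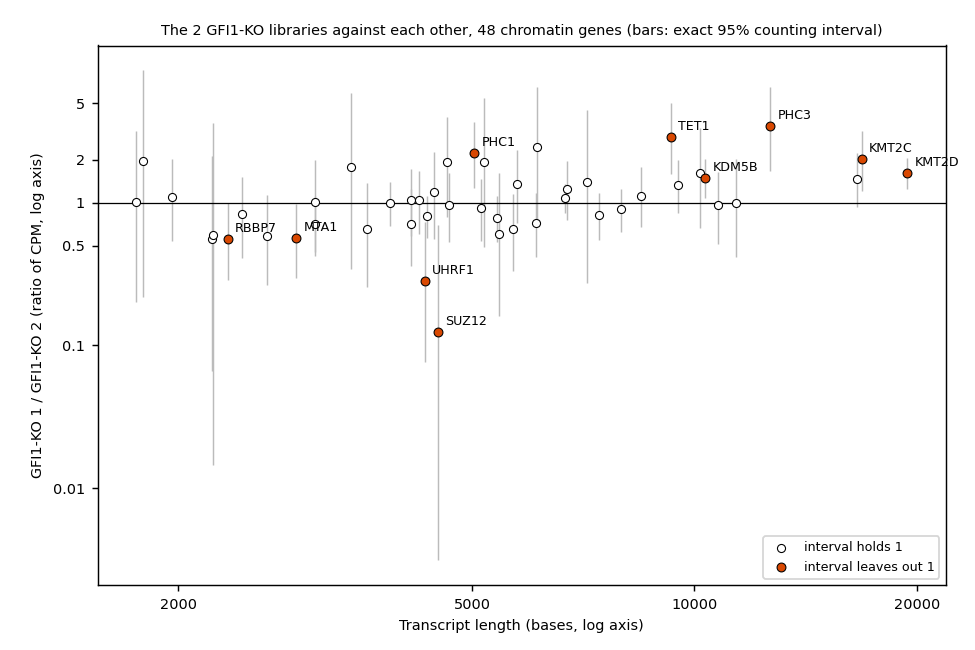
Ratio of the level in GFI1-KO replicate 1 to that in GFI1-KO replicate 2 (y axis, log scale) against transcript length in bases (x axis, log scale) for the 48 tested genes, with exact 95% counting intervals. Filled points mark the 10 genes whose interval leaves out 1; TET1, KDM5B, PHC3, KMT2C and KMT2D lie above 1 at the long end.

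Between the 2 WT libraries the interval left out 1 for 15 of the 48 genes (31.2%), against 25.6% of all genes tested, and 14 of the 15 were higher in WT replicate 2. UHRF1 (1.71 times), TET3 (1.70), TET2 (1.57), EHMT2 (1.52), DNMT1 (1.49), EZH2 (1.43) and DOT1L (1.43) led these, and PCGF5 (0.522) was the gene that was lower. Over all genes tested the same split was 1507 higher and 1408 lower.

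Related chromatin genes outside the set were read in the same fit. In 6 lists of other Polycomb, MLL/COMPASS, BAF, NuRD and deacetylase, H3K9 methylation and DNA methylation genes, 109 of 114 were tested, 0 were called by edgeR, 4 had an unadjusted p under 0.05, and the median log2 fold change was -0.018. By list the medians ran from -0.10 for MLL/COMPASS to 0.092 for DNA methylation. ASH2L, a core subunit of all KMT2 complexes, was at 355 and 370 CPM in WT and 113 and 209 CPM in GFI1-KO (log2 fold change -1.01, 95% interval -1.54 to -0.49, edgeR adjusted p = 0.068). Both GFI1-KO values lay below both WT values, and the gene missed the threshold in the fit of all 4 libraries. It passed without GFI1-KO replicate 1 and without GFI1-KO replicate 2, as 1 called gene of its list in each fit. PPHLN1, of the HUSH silencing complex, had -0.57 (adjusted p = 0.449), CBX5, which encodes HP1 alpha, 0.67 (adjusted p = 0.465) and AHCY, which clears the methylation inhibitor S-adenosylhomocysteine, -0.51 (adjusted p = 0.53).

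Genes whose silence depends on DNA methylation were also read. Of 24 germline genes, 11 had 0 counts in all 4 libraries, among them DAZL, DDX4 and MAEL, and 3 were expressed enough to be tested. RBM46, an RNA-binding protein gene of germ cells, was counted 73 and 66 times in WT, against 0 and 3 times in GFI1-KO, and passed the test (log2 fold change -4.52, SE 0.62, edgeR adjusted p = 0.00226). Its pooled GFI1-KO to WT ratio was 0.0416 (exact counting interval 0.00848 to 0.124). The call was absent with DESeq2 and without GFI1-KO replicate 2. RBM46 was on the list with its fall in these data already known. The other 2 germline genes tested, TDRKH and STAG3, had log2 fold changes of 0.63 (-0.13 to 1.38, adjusted p = 0.671) and 0.44 (-0.98 to 1.87, adjusted p = 0.942), and the median of the 3 was 0.44. Among 21 imprinted genes, 15 were tested, 0 were called by edgeR and the median log2 fold change was -0.10. GRB10, a growth factor receptor adaptor, was at 142 and 163 CPM in WT and 272 and 276 CPM in GFI1-KO (0.85, 0.38 to 1.31, adjusted p = 0.088). MEST was at 285 and 191 CPM against 113 and 123 CPM (-0.98, -1.53 to -0.44, adjusted p = 0.0912).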

How the data were processed

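The authors' deposited table holds whole-number read counts per gene for 4 libraries, without normalization. Per the labels' protocols, RNA was taken up in Trizol and libraries were made with a TruSeq RNA kit from total RNA. The submitters' processing notes name HISAT2 2.0.4, SAMtools 1.3.1, HTSeq 0.6.0, DESeq 1.18.1 and the build GRCh38, and the strand setting of counting is not given in the sources used here. Exons of other genes on the opposite strand overlap, among others, 18.1% of the exon bases of PHC1 (M6PR), 18% of RBBP4 (SYNC) and 13.4% of SETDB1 (CERS2). Of the 19912 gene identifiers, 19902 matched GENCODE 29, which gave symbols, positions and the principal transcript's length.

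Genotypes were compared with edgeR 4.0.16 (R 4.3.3), with TMM scaling and the default filter of filterByExpr. The quasi-likelihood fit took all 4 libraries without a block and used edgeR's older (legacy) dispersion estimate. Benjamini-Hochberg adjustment was over all 11380 genes tested, and genes were called at an adjusted p under 0.05. The fit was tested on simulated counts. Adjusted p-values in the text are from this fit unless another is named. The SE and 95% interval of a fold change are not edgeR output. The SE was derived as the unshrunken log2 coefficient divided by the square root of the F statistic. The interval is the reported log2 fold change plus or minus the SE times a t quantile. Limma 3.58.1 (voom) and DESeq2 1.42.0 were alternatives, beside other scalings and filters, a replicate block, and fits without each library; a lone library is then assumed to vary like the other group. Counting intervals are exact Poisson or binomial at 95% and cover counting error only, since reads are not independent molecules. Promoters came from a RefSeq table on GRCh38.p14, matched by symbol.

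The genes and lists were chosen with earlier results of these data known. Values in all libraries are given by rule for genes with an unadjusted p under 0.05, the gene of each role with the highest mean CPM, and paralog pairs whose pooled share differs by over 10 points; other genes given in full (among them CBX2, KDM5A, UHRF1, SUZ12, JARID2, KMT2C, DNMT1, DNMT3A, MTA1 and MTA2) were chosen after their values were seen. From the lists, called genes and at most the 2 with the smallest p per list are named. POU5F1, DPPA4, SALL4, STAG3, KDR, PECAM1, LCP1, CD53, CORO1A, COL1A1, COL1A2, COL3A1 and markers at 0 were added after their values were seen.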

Additional observations from a re-analysis of the deposited data

How the results depend on the processing

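The count of genes called over the whole table, 109, was 33 with DESeq2, 58 with edgeR's newer dispersion estimate, 58 with upper-quartile scaling, 72 with total-count scaling, 305 with no filter on low counts, 50 when genes needed a mean of 5 CPM, and 62 to 373 with 1 library left out. With the replicate block it was 327; replicate numbers are not taken as pairing, since deviations of same-numbered libraries correlated at 0.116 over 11380 genes in only 2 pairs. The set kept 0 calls under all 13 alternatives but 1, with 0 to 3 over the fits without 1 library; the smallest adjusted p with the block was 0.0619. Of 624 fold changes under alternatives, 11 turned direction by more than their standard error, each on leaving out 1 library. The ranges of these log2 fold changes were -0.87 to 0.07 for PCGF5, -0.25 to 0.27 for DOT1L, -0.29 to 0.28 for DNMT1, -0.5 to 0.19 for EHMT2, -0.06 to 1.72 for PHC3, -0.23 to 1.32 for TET1, -0.45 to 0.4 for EZH2, -0.59 to 0.23 for EED, -0.44 to 0.0026 for JARID2, -0.32 to 0.28 for RNF2 and -0.35 to 0.82 for PHC1. The cause was not tested. The 146584 counts of GFI1-KO replicate 1, where the median tested gene has 6 counts, limit what its values can show.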
